A study of Homo sapiens with 12 samples.

Results

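The 8 genes described here encode the SREBP transcription factors and the machinery that senses sterols in the endoplasmic reticulum (ER) and controls them. TMEM97, a sterol-regulated ER protein, is listed with this machinery. The 8 genes were SREBF1, SREBF2, SCAP, INSIG1, INSIG2, MBTPS1, MBTPS2 and TMEM97. All were found by gene symbol among the 60662 genes of the expression table. All 8 passed the filter for testing, which asked for 4 or more of the 12 samples to reach 0.5 TPM and left 16815 genes. TPM is a library's transcript abundance scaled for length to a fixed total, so the levels of different genes can be set side by side.

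NCI-H295R (H295R) is a human adrenocortical carcinoma cell line that synthesizes cortisol from cholesterol. There were 3 groups of 4 samples, described as biological replicates. The CJ28 group received a benzimidazolylurea derivative and the MET group metyrapone, an inhibitor of the last enzyme of cortisol synthesis, each at 30 µM, while the VEH group received only the solvent, 0.1% DMSO. Exposure lasted 24 h in all groups and came after 12 h without serum, in cultures that had reached confluence. The comparisons ask how the expression of the SREBP regulators differed after exposure to 2 cortisol synthesis inhibitors of unlike structure, in a single cell line at a single dose and time.

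SREBPs are made as precursors in the ER membrane, where SCAP escorts them. When ER cholesterol is high, the INSIG proteins hold SCAP in the ER. When it is low, SCAP carries the SREBP in COPII vesicles to the Golgi, where site-1 protease and then site-2 protease release the part that enters the nucleus and activates genes for cholesterol synthesis, low-density lipoprotein uptake and fatty acid synthesis. Some genes of the machinery are themselves SREBP targets. In the adrenal cortex the cholesterol so obtained is the substrate of steroid hormones.

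In CJ28, 6 of the 8 genes were lower than in VEH at an adjusted p under 0.05 (limma on log2(TPM + 0.1), Benjamini-Hochberg over all tested genes), against 37.1% of all tested genes that were lower in CJ28. None of the 8 was higher, while 19.9% of all tested genes were higher. SREBF1 fell most, followed by INSIG1, TMEM97 and SREBF2, and SCAP and INSIG2 fell by smaller amounts. MBTPS1 and MBTPS2, the protease genes, did not pass the test. The median log2 fold change of the 8 genes was -0.735, beside -0.13 over all tested genes. In 5 of the 8 genes no CJ28 sample reached the lowest VEH sample, a pattern that 32.7% of all tested genes had (31.3% against MET). MET gave 0 calls among the 8, against 0.00595% of all tested genes called in either direction.

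Several features of the whole libraries moved with CJ28. Nuclear protein-coding genes held 24.3% to 24.8% of TPM in VEH, 21.3% to 21.4% in CJ28 and 24.1% to 24.6% in MET. CJ28 against VEH called 3346 genes higher and 6231 lower, and after scaling by the median of ratios 4925 higher and 4430 lower. The summed TPM of 8 adrenocortical markers (among them NR5A1, STAR and CYP11A1) was 272 to 283 in VEH, 109 to 117 in CJ28 and 271 to 285 in MET. The sum of 10 markers of immune, endothelial, fibroblast, liver and adrenomedullary cells was 1.62 to 2.73 in VEH, 1.05 to 1.81 in CJ28 and 1.46 to 1.95 in MET, with TH at 0 in all 12 samples. Results under median-of-ratios scaling and nuclear protein-coding TPM are given below, and the part of these shifts as causes was not tested. Among the adrenocortical markers, NR5A1, STAR, CYP11A1, HSD3B2 and CYP17A1 are steroidogenic genes that the paper reports as altered by CJ28 and not by MET. The marker sum in this single cell line is therefore not a measure of cell make-up. In bulk RNA, fewer cells expressing a gene and less of its RNA per cell cannot be told apart.

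**Figure D1:**
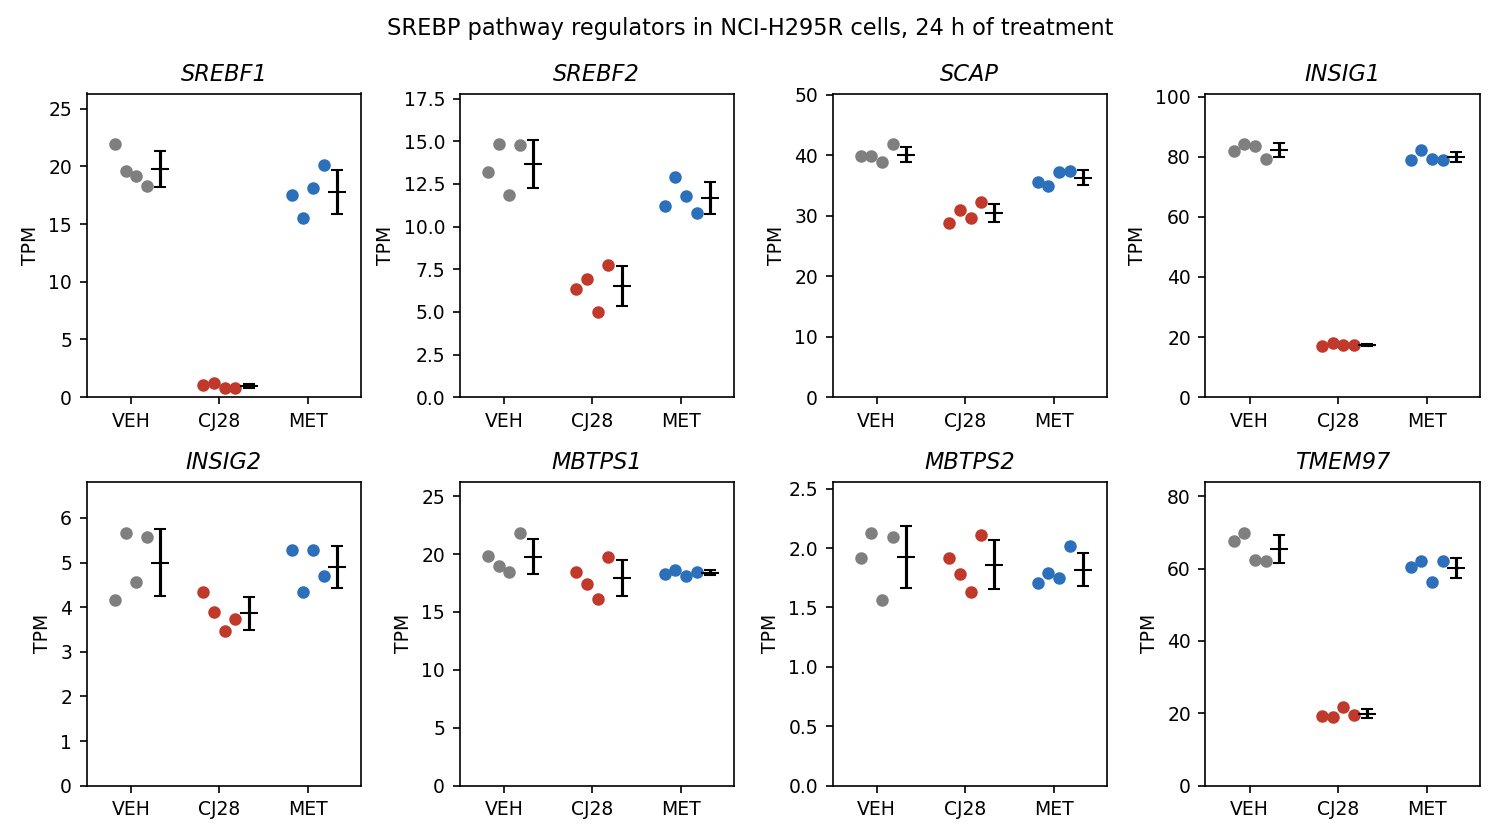
TPM of the 8 SREBP regulators in each sample of VEH, CJ28 and MET (1 dot per sample, 4 per group), with the mean and SD in black. SREBF1, SREBF2, SCAP, INSIG1 and TMEM97 have all 4 CJ28 samples below all VEH and MET samples, while the groups overlap for INSIG2, MBTPS1 and MBTPS2.

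SREBF1 encodes SREBP-1a and SREBP-1c, of which the latter mainly drives fatty acid synthesis. These isoforms start from different promoters and are not separated in the gene-level table. SREBF1 (GRCh38, chr17:17810399-17837011, minus strand) had a TPM of 21.93, 19.62, 19.15 and 18.27 in the VEH samples, 1.03, 1.2, 0.76 and 0.83 in the CJ28 samples and 17.49, 15.49, 18.09 and 20.1 in the MET samples. All CJ28 samples lay far below the others, and the VEH and MET samples overlapped. Mean TPM was 19.7 ± 1.56 in VEH and 0.955 ± 0.199 in CJ28 (SD, n = 4), a fall of 95.2% (log2 fold change -4.25, SE 0.12, limma, adjusted p = 2.94e-11). It was the fifth lowest log2 fold change among the 16815 tested genes. The promoter stretch that ends where the table's annotation begins the gene is shown because SREBF1 fell most. It comes from RefSeq (GRCh38.p14, chr17:17837012-17837236, minus strand, 5′ to 3′), and capitals mark GC boxes, the letters GGGCGG on either strand, which Sp1 binds.
SREBF1 promoter: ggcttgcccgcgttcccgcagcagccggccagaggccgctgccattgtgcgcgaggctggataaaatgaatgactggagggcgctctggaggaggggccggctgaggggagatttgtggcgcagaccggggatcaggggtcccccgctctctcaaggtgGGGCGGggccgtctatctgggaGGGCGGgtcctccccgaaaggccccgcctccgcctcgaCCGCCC

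Motifs were searched in the 250 bases before each RefSeq start, which for SREBF1 lies 25 bases inside the gene as the table draws it, and motif distances count from that RefSeq start. The SREBF1 window held 3 GC boxes and no match to the sterol regulatory element TCACNCCAC, to the E-box CACGTG, to the NF-Y motif CCAAT or to the direct repeat with 4 spacer bases that the liver X receptor (LXR) binds, each searched on both strands. Among 35116 RefSeq promoters, 42.6% held the GC box, 32.0% the NF-Y motif, 6.34% the E-box, 0.883% the sterol regulatory element and 0.0142% the LXR repeat. No motif contains another, and a match is a description of the window only. No other start of SREBF1 was searched, so the absent matches hold for this window and not for every promoter of the gene.

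SREBF2 encodes SREBP-2, the isoform that mainly drives cholesterol synthesis and uptake. SREBF2 (chr22:41833079-41907307, plus strand) was measured at 13.17, 14.83, 11.87 and 14.8 TPM in VEH, at 6.34, 6.93, 5.01 and 7.75 TPM in CJ28 and at 11.2, 12.92, 11.76 and 10.79 TPM in MET. The CJ28 range lay below the other ranges, which overlapped. Mean TPM (± SD) was 13.7 ± 1.43 in VEH and 6.51 ± 1.15 in CJ28 (log2 fold change -1.07, SE 0.12, limma, adjusted p = 7.07e-06). SREBF2 was the only gene of the 8 with a sterol regulatory element in its window, 133 bases before the RefSeq start, with an NF-Y motif at 106 bases. Its RefSeq start lies 26 bases inside the table's gene, so 2 GC boxes at 23 and 10 bases fall outside the printed stretch. The stretch (chr22:41832855-41833078, plus strand) is printed with the sterol regulatory element and the NF-Y motif, here read on the opposite strand as ATTGG, in capitals.
SREBF2 promoter: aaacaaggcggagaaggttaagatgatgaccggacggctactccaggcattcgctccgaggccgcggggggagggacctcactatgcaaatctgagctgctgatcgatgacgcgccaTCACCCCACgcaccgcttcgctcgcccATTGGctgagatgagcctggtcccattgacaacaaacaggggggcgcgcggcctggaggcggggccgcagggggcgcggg

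The loss was unequal between the SREBP genes. Within a sample the log2 ratio of SREBF1 to SREBF2 was 0.53 ± 0.21 in VEH, -2.65 ± 0.29 in CJ28 and 0.60 ± 0.26 in MET (SD, n = 4). SREBF1 thus stood at 1.44 times SREBF2 in VEH and at 0.159 times SREBF2 in CJ28 (geometric means of TPM + 0.1). The difference of -3.18 between CJ28 and VEH gave p = 0.0286 in an exact permutation test (two-sided), the smallest p that 4 against 4 samples allow, and 0.0571 after adjustment over 12 ratio tests, which misses 0.05. The ratio was lower in 4 of 4 CJ28 samples than in any VEH sample. For MET against VEH the ratio differed by 0.07 (exact permutation test, p = 0.714).

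Both SREBP genes host a microRNA of the miR-33 family, which is known to repress ABCA1, the cholesterol efflux pump. The mature sequences from RefSeq are shown because they share 1 seed, bases 2 to 8, in capitals.
hsa-miR-33a-5p, in an intron of SREBF2: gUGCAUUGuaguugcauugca
hsa-miR-33b-5p, in an intron of SREBF1: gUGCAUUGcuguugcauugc

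MIR33A and MIR33B were listed at 0 in all 12 samples of this table, as was MIR6777 inside SREBF1, and libraries of this kind do not capture mature microRNAs. SREBF2-AS1, a long noncoding RNA on the opposite strand that overlaps SREBF2 over 1587 bases, fell from 1.25 ± 0.133 to 0.605 ± 0.0714 TPM in CJ28 (log2 fold change -0.94, SE 0.12, limma adjusted p = 3.2e-05). RAI1 overlaps the end of SREBF1 on the opposite strand over 1055 bases and measured 3.18 ± 0.340 TPM in VEH and 3.53 ± 0.455 in CJ28 (log2 fold change 0.14, adjusted p = 0.283). Whether the reads were counted by strand is not given in the sources used here, so reads of overlapping genes cannot be told apart.

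SCAP, the cholesterol sensor that escorts SREBPs to the Golgi, fell by a small amount in all 4 CJ28 samples. SCAP (chr3:47413681-47477126, minus strand) had 39.86, 39.79, 38.9 and 41.82 TPM in VEH, 28.84, 30.88, 29.62 and 32.24 TPM in CJ28 and 35.54, 34.97, 37.28 and 37.37 TPM in MET. The 3 groups did not overlap, with VEH highest and CJ28 lowest. In CJ28 the mean (± SD) fell by 24.2%, from 40.1 ± 1.23 to 30.4 ± 1.49 TPM (log2 fold change -0.40, SE 0.04, limma, adjusted p = 3.88e-06). The log2 fold change was -0.25 with median-of-ratios scaling and -0.19 with nuclear protein-coding TPM, called in both. SCAP became the gene with the highest level of the 8 in CJ28, where TMEM97 and INSIG1 had been higher in VEH. Its 250-base window, which lies inside the gene as the table draws it, held an E-box at 58 bases and 3 GC boxes.

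INSIG1 encodes the INSIG protein that is itself induced by SREBPs and is short-lived when sterols are low. INSIG1 (chr7:155297776-155310235, plus strand) measured 81.77, 84.22, 83.59 and 79.13 TPM in VEH, 16.87, 17.96, 17.36 and 17.46 TPM in CJ28 and 79.02, 82.25, 79.31 and 79.07 TPM in MET. CJ28 samples formed a narrow cluster far below the others, and VEH and MET overlapped. Its mean (± SD) fell 4.72-fold, from 82.2 ± 2.28 to 17.4 ± 0.447 TPM (log2 fold change -2.23, SE 0.03, limma, adjusted p = 1.12e-13), rank 64 from the most negative of all tested genes. The promoter is printed in a pair of pieces because the RefSeq start lies 102 bases inside the gene as the table's annotation draws it. Capitals mark GC boxes and an NF-Y motif (ATTGG) in the first piece (chr7:155297628-155297775, plus strand) and the E-box, 55 bases before the RefSeq start, in the second (chr7:155297811-155297840).
INSIG1 promoter: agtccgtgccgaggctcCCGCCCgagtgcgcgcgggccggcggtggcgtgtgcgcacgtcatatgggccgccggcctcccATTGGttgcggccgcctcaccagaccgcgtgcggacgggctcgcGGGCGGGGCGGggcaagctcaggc
INSIG1 E-box stretch: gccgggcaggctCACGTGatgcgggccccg

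In all, the INSIG1 window held 5 GC boxes, an E-box and an NF-Y motif, the latter at 170 bases. The GC boxes at 93 and 80 bases lie between the printed pieces and are not shown. A long noncoding RNA upstream of INSIG1, AC144652.1 (also known as INSIG1-DT, chr7:155295918-155297541), does not overlap the gene. AC144652.1 fell from 1.66 ± 0.0984 to 0.470 ± 0.120 TPM in CJ28 (log2 fold change -1.65, SE 0.15, limma adjusted p = 1.09e-06).

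INSIG2 encodes the other INSIG protein, whose gene is not known as an SREBP target in most cells. INSIG2 (chr2:118088452-118110997, plus strand) had 4.17, 5.67, 4.57 and 5.58 TPM in VEH, 4.34, 3.9, 3.47 and 3.74 TPM in CJ28 and 5.29, 4.33, 5.27 and 4.69 TPM in MET. The highest CJ28 sample lay above the lowest VEH sample. INSIG2 fell with a log2 fold change of -0.36 (SE 0.11, limma, adjusted p = 0.0138), while an exact permutation test of TPM gave p = 0.0571. This call was lost when libraries were scaled by the median of ratios (log2 fold change -0.21, limma adjusted p = 0.0951) or to nuclear protein-coding TPM (-0.16, adjusted p = 0.205).

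The balance of the INSIG genes and of SCAP shifted in CJ28. INSIG1 stood at 16.3 times INSIG2 in VEH and at 4.43 times in CJ28, a log2 ratio of 4.02 ± 0.22 against 2.15 ± 0.15. SCAP stood at 0.488 times INSIG1 in VEH, at 1.74 times in CJ28 and at 0.455 times in MET. Each shift from VEH to CJ28 gave p = 0.0286 and 0.0571 after adjustment (exact permutation test, 12 tests), with all 4 CJ28 samples beyond all VEH samples. Under MET the INSIG1 to INSIG2 ratio differed from VEH by -0.02 on the log2 scale (exact permutation test, p = 0.914) and the SCAP to INSIG1 ratio by -0.10 (p = 0.143).

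**Figure D2:**
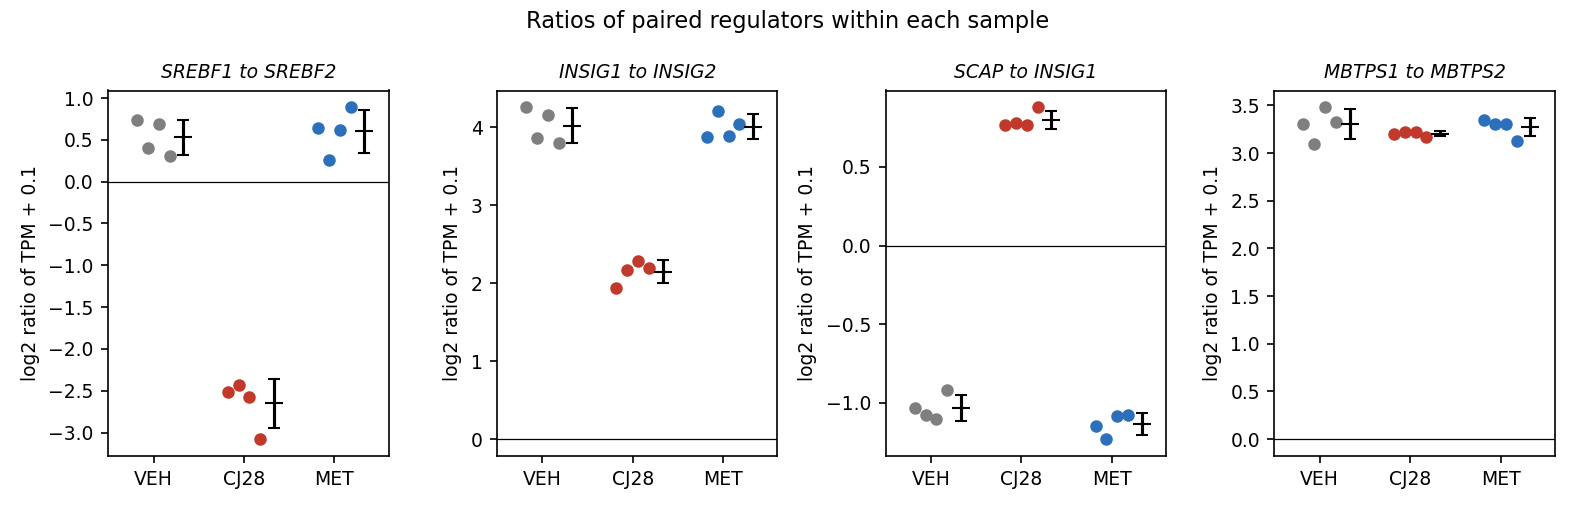
Log2 ratio of the TPM + 0.1 of paired regulators within each sample (1 dot per sample), with mean and SD. SREBF1 to SREBF2 and INSIG1 to INSIG2 sit lower in all CJ28 samples and SCAP to INSIG1 sits higher, while MBTPS1 to MBTPS2 overlaps between the groups.

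MBTPS1 encodes site-1 protease and MBTPS2 site-2 protease, which also cut other membrane proteins. MBTPS1 (chr16:84053761-84116942, minus strand) had 19.85, 18.95, 18.45 and 21.85 TPM in VEH, 18.44, 17.44, 16.08 and 19.78 TPM in CJ28 and 18.31, 18.64, 18.14 and 18.48 TPM in MET. MBTPS2 (chrX:21839617-21885423, plus strand) had 1.92, 2.13, 1.56 and 2.09 TPM in VEH, 1.92, 1.78, 1.63 and 2.11 TPM in CJ28 and 1.71, 1.79, 1.75 and 2.02 TPM in MET. The groups overlapped for both genes. For CJ28 against VEH, the log2 fold change of MBTPS1 was -0.14 (limma, 95% interval -0.28 to -0.0015, adjusted p = 0.0788). That of MBTPS2 was -0.04 (95% interval -0.29 to 0.20, adjusted p = 0.763). Without VEH replicate 3 (-0.17, limma adjusted p = 0.0481) or CJ28 replicate 4 (-0.19, adjusted p = 0.0208) MBTPS1 passed the test, and under median-of-ratios scaling the values turned to 0.01 for MBTPS1 and 0.10 for MBTPS2. The intervals do not show equal expression, but they leave no room for a fall of the size seen in SREBF1, INSIG1, TMEM97 or SREBF2. The log2 ratio of MBTPS1 to MBTPS2 was 3.30 ± 0.16 in VEH and 3.20 ± 0.03 in CJ28 (exact permutation test, p = 0.314). Neither gene held any of the 5 motifs in its 250-base window. YY2, an intronless gene on the same strand inside MBTPS2, fell from 0.778 ± 0.162 to 0.315 ± 0.0810 TPM (log2 fold change -1.08, SE 0.19, limma adjusted p = 0.000393).

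TMEM97, the sigma-2 receptor, is a sterol-regulated ER membrane protein that binds the cholesterol transporter NPC1. TMEM97 (chr17:28319200-28328685, plus strand) measured 67.62, 69.94, 62.36 and 62.2 TPM in VEH, 19.21, 19.04, 21.85 and 19.58 TPM in CJ28 and 60.35, 62.07, 56.29 and 62.15 TPM in MET. CJ28 lay far below the others, and the highest MET sample lay just below the lowest VEH sample. Its mean (± SD) fell 3.29-fold in CJ28, from 65.5 ± 3.87 to 19.9 ± 1.31 TPM (log2 fold change -1.71, SE 0.05, limma, adjusted p = 7.92e-11). Its window (chr17:28318950-28319199, plus strand) is shown for its 3 NF-Y motifs, at 198, 146 and 85 bases, which stand in capitals with 2 GC boxes.
TMEM97 promoter: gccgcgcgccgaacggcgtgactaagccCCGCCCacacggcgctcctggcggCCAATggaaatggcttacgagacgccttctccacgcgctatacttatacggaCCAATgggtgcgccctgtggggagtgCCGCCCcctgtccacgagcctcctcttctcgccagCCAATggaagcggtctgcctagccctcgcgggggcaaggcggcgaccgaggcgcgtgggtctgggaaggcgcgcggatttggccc

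**Figure D3:**
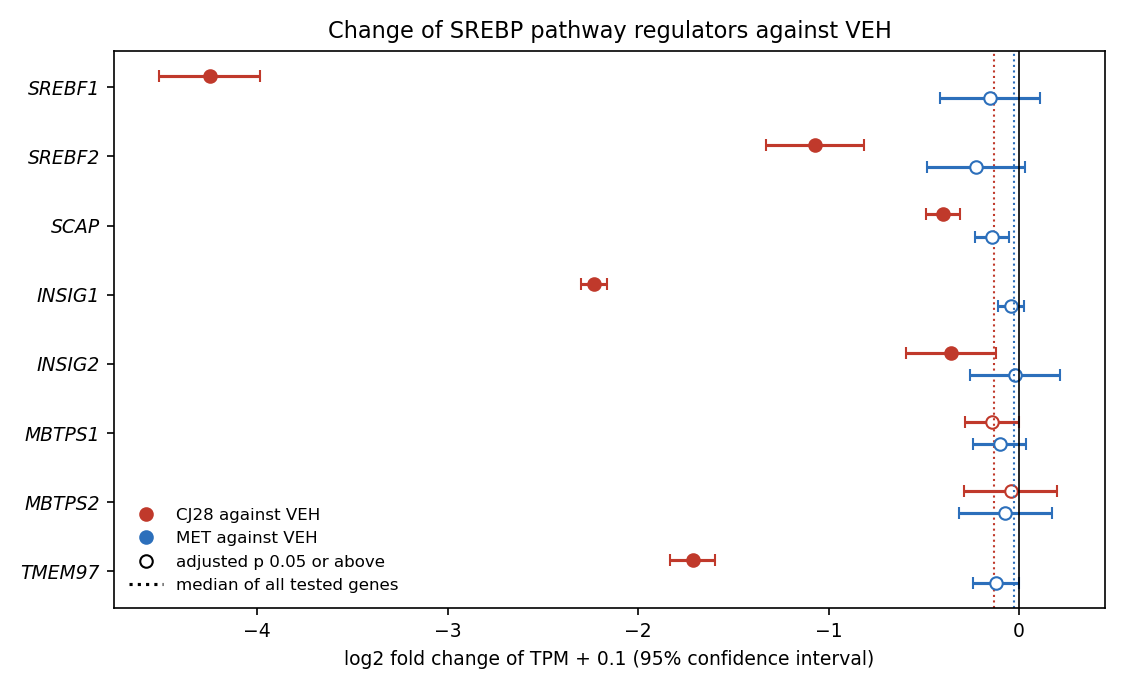
Log2 fold change of each regulator for CJ28 against VEH and MET against VEH (limma on log2(TPM + 0.1)), with 95% intervals. Open points have an adjusted p of 0.05 or more, and the dotted lines are the medians of all tested genes for each comparison. The MET against VEH points lie between -0.22 and -0.02, and SREBF1 reaches -4.25 in CJ28.

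MET, given at the same dose and for the same time, gave no call among the 8 genes against VEH. The log2 fold changes against VEH were -0.15 for SREBF1, -0.22 for SREBF2, -0.14 for SCAP, -0.04 for INSIG1, -0.02 for INSIG2, -0.10 for MBTPS1, -0.07 for MBTPS2 and -0.12 for TMEM97. All 8 were negative, as were 61.1% of all tested genes, although INSIG2 turned positive with median-of-ratios scaling (0.0081), without VEH replicate 2 (0.041) or 4 (0.034) and without MET replicate 2 (0.034), and none had an adjusted p under 0.05 (limma, 0.889 for SCAP and 0.933 for TMEM97). At an unadjusted limma threshold of 0.05, SCAP and TMEM97 alone of the 8 were lower, a threshold that 3.74% of all tested genes passed in that direction. These were also the 2 genes whose MET samples all lay below all VEH samples, a pattern that 2.03% of all tested genes had (exact permutation test of TPM, p = 0.0286 for each, the smallest possible).

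Compared directly, CJ28 gave lower levels than MET in the same 6 genes, while 34.6% of all tested genes were lower and 20.9% higher in CJ28 than in MET. The log2 difference was -4.10 for SREBF1, -2.19 for INSIG1, -1.59 for TMEM97, -0.85 for SREBF2, -0.26 for SCAP and -0.33 for INSIG2 (limma, adjusted p of 0.0197 for INSIG2 and 0.000186 or less for the others). SCAP lost this call when libraries were scaled to nuclear protein-coding TPM (-0.065, limma adjusted p = 0.195). INSIG2 lost it under either rescaling (-0.215 and -0.15) and without CJ28 replicate 3 (-0.29), MET replicate 1 (-0.30) or MET replicate 3 (-0.30). MBTPS1 and MBTPS2 differed by -0.04 (95% interval -0.18 to 0.10) and 0.03 (-0.21 to 0.27). The comparisons of CJ28 and MET with VEH share the VEH samples, and that of CJ28 with MET shares its samples with both.

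The order of levels among the genes changed with CJ28. In VEH and MET the TPM order was INSIG1, TMEM97, SCAP, MBTPS1, SREBF1, SREBF2, INSIG2 and MBTPS2, in which MBTPS1 and SREBF1 overlapped. In CJ28 it was SCAP, TMEM97, MBTPS1, INSIG1, SREBF2, INSIG2, MBTPS2 and SREBF1. TMEM97 overlapped MBTPS1 there and MBTPS1 overlapped INSIG1, while SREBF1 became the lowest of the 8.

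Among the 13305 tested genes that averaged 1 TPM or more, those nearest to each regulator were found by the root mean square difference in log2(TPM + 0.1) from VEH over the 12 samples. TMEM97 had 2 cholesterol synthesis genes among its 3 nearest, LSS (0.0692) and ACAT2 (0.0889), with the histone gene H2BC21 (0.0816) between them. INSIG1 was nearest to GNRHR (0.0574), CXCR4 (0.0696) and FXYD6 (0.0802), which encode 2 receptors of the G protein-coupled kind and a regulator of the sodium pump. SREBF2 lay nearest to the mitotic genes PLK1 (0.102) and KIF18B (0.113) and to the chaperone HSP90AA1 (0.131), and SCAP to MYO10 (0.0479) and DEPDC5 (0.0511), among others. SREBF1 had no close neighbour, since its nearest were ELOVL3 (0.526), a fatty acid elongase, and the histone genes H2BC14 (0.688) and H3C4 (0.708), whose log2 fold changes were -3.50, -3.10 and -3.14. For the genes that moved least, the nearest were RUFY3, FITM2 and SIMC1 for INSIG2, MT-CO1, MFGE8 and MYH14 for MBTPS1, and NIFK-AS1, PRRC2B and TJAP1 for MBTPS2. RSEM divides reads among near-identical histone genes, so their values are uncertain. These distances are descriptive, and all genes share the same 12 libraries.

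The counts of the pathway lists in CJ28 against VEH stand beside 37.1% lower and 19.9% higher over all tested genes. Of 22 tested cholesterol synthesis and uptake genes, 21 were lower and 0 higher, with a median log2 fold change of -1.53. HMGCS1, the enzyme that feeds HMG-CoA into the pathway, fell from 196 to 51.1 TPM (-1.94, SE 0.04, limma adjusted p = 2.12e-12), and mevalonate kinase, MVK, from 23.1 to 6.07 TPM (-1.91, SE 0.06, adjusted p = 1.1e-10). TM7SF2, a sterol reductase, was the gene not called (2.61 TPM in VEH, 2.39 in CJ28). Of 13 tested fatty acid synthesis genes, 10 were lower and 0 higher, with a median of -0.96. The desaturases FADS2 and SCD moved most, FADS2 from 68.2 to 8.21 TPM (-3.04, SE 0.05, adjusted p = 1.56e-13) and SCD from 90.9 to 13.7 TPM (-2.72, SE 0.04, adjusted p = 6.49e-14). GPAM, ME1 and MID1IP1 were not called, and PNPLA3 and THRSP were below the filter.

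Genes upstream of SREBP activation did not move as a block. Of 18 genes for ER retention and degradation of the pathway's proteins, 11 were lower, 2 higher and 5 not called, with a median of -0.18, near the -0.13 of all tested genes (37.1% lower, 19.9% higher). The median turned to 0.022 with nuclear protein-coding TPM. PGRMC1, a heme-binding ER protein, fell from 49.1 to 24.6 TPM (-0.996), and the extraction ATPase VCP from 168 to 94.3 TPM (-0.83), while the signal peptide peptidase HM13 rose from 23.7 to 32.6 TPM (0.46) and AUP1, a lipid droplet protein of ER degradation, from 29.5 to 37.4 TPM (0.34). Of 12 genes for the COPII coat and for SPRING1, the partner of site-1 protease, 4 were higher and 2 lower, with a median of 0.08 that became 0.23 with median-of-ratios scaling and 0.29 with nuclear protein-coding TPM. The coat genes SEC24D (4.65 to 12.2 TPM, log2 fold change 1.38) and SEC23B (13.6 to 23.7 TPM, 0.80) rose, and the GTPases SAR1B (-0.16) and SAR1A (-0.16) fell, the latter calls being lost in CJ28 against VEH after either rescaling. Among 6 tested genes for other substrates of site-1 protease, 4 were higher and 1 lower, with a median of 0.37 (0.57 with nuclear protein-coding TPM). ATF6, a sensor of unfolded protein, rose from 8.47 to 11.9 TPM (0.48) and CREB3, another membrane-bound transcription factor, from 35.0 to 47.1 TPM (0.43), while GNPTAB, a lysosomal sorting enzyme, fell from 4.65 to 3.70 TPM (-0.32). CREB3L1 and CREB3L3 were below the filter. Every gene said here to have risen or fallen had a limma adjusted p of 0.0333 or less.

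Nuclear partners and the LXR axis were described in the same way, again beside 37.1% lower and 19.9% higher over all tested genes. Of 11 genes for import, promoter partners, coactivators and turnover of nuclear SREBP, 9 were lower and 0 higher, with a median of -0.38 (-0.23 with median-of-ratios scaling, -0.18 with nuclear protein-coding TPM). NFYA, a subunit of the CCAAT-binding factor NF-Y, fell from 9.52 to 4.28 TPM (-1.14, SE 0.09, limma adjusted p = 2.08e-07), and the kinase GSK3B from 24.5 to 16.8 TPM (-0.55, SE 0.07, adjusted p = 2.17e-05). Among 8 genes of the LXR axis, which induces SREBF1 in many tissues, 5 were lower and 1 higher, with a median of -0.60. All target genes on the list were lower, while the called changes of the receptor and partner genes went both ways. The median lies between these kinds of gene. This median was -0.278 without VEH replicate 1, -0.284 without VEH replicate 2, -0.291 without MET replicate 2 or MET replicate 4, -0.32 with a pseudocount of 1, and 0.074 over the genes averaging 1 TPM or more. Without VEH replicate 1 or 2 the list held 3 lower genes. The efflux pumps ABCA1 (1.18 to 0.118 TPM, -2.56, adjusted p = 9.49e-09) and ABCG1 (0.470 to 0.0950 TPM, -1.55, adjusted p = 7.35e-05) fell, values that the pseudocount of 0.1 understates at such low levels. Both passed the filter of 0.5 TPM only through VEH and MET samples, so their fall is no independent support for a change of the list. Leaving out a VEH or MET sample can put ABCG1 below the filter, and that loss alone moves the list's median and count. The median of -0.291 is the value of RXRA. NR1H2, which encodes LXR beta, rose from 21.6 to 24.8 TPM (0.20, adjusted p = 0.000891). MET gave 0 calls in all 7 lists, with medians between -0.09 and 0.04. Signs were uneven, beside 61.1% negative over all tested genes. Negative in MET were 22 of 22 cholesterol genes (median -0.08, beside -0.03 over all tested genes) and 11 of 13 fatty acid genes. The LXR axis had 4 of 8 negative and other substrates of site-1 protease 1 of 6.

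**Figure D4:**
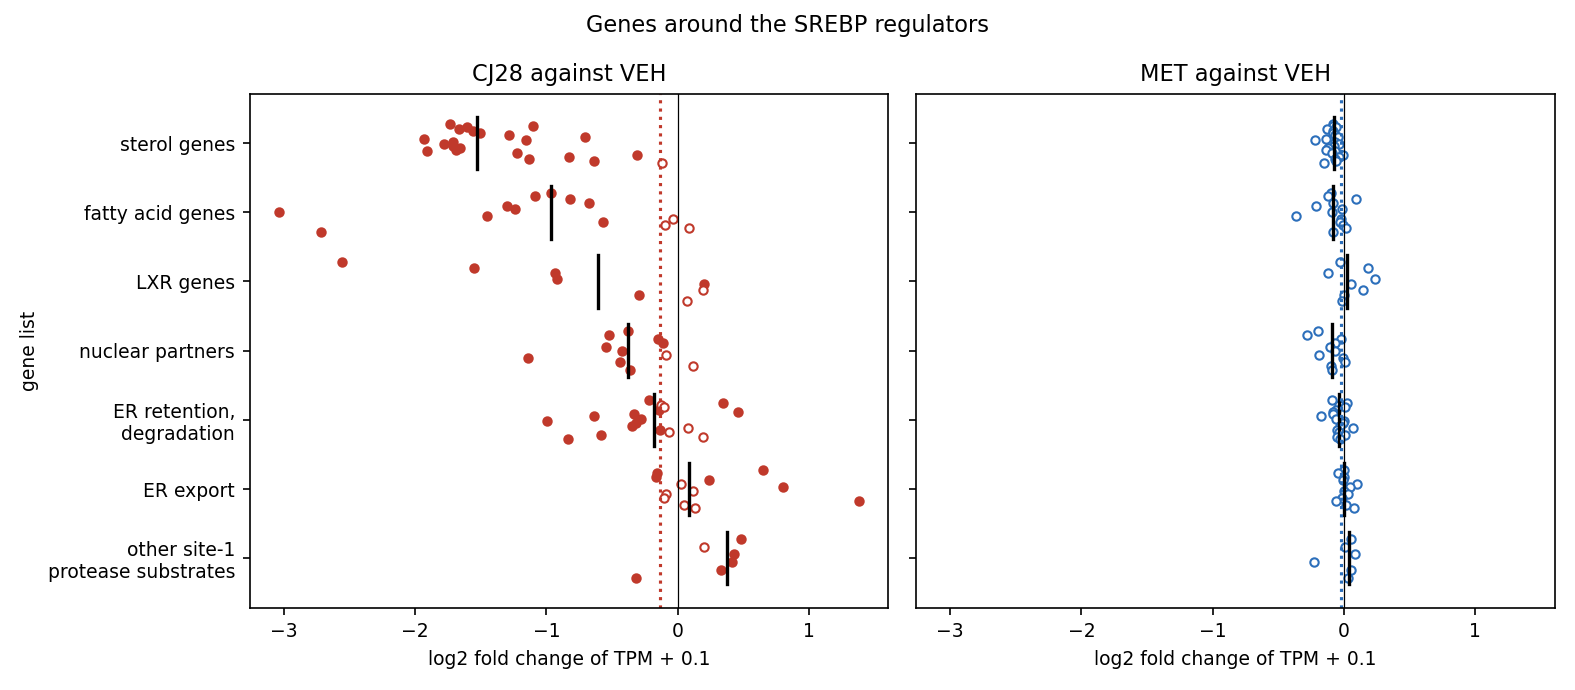
Log2 fold change against VEH of each tested gene of the 7 pathway lists for CJ28 and MET (limma on log2(TPM + 0.1)), with filled dots for an adjusted p under 0.05 and a black bar for the list's median. In CJ28 the medians run from -1.53 for sterol targets to 0.37 for other substrates of site-1 protease, and in MET no dot is filled.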

How the data were processed

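RNA-seq of 12 samples of NCI-H295R cells (VEH, CJ28 and MET, 4 each) was examined. Total RNA was depleted of ribosomal RNA and made into stranded libraries. Per the labels and the study's methods, the authors trimmed reads with cutadapt (version 2.8), aligned them to GRCh38 with STAR (version 2.7.10b) and quantified genes with RSEM (version 1.3.3). The deposited values are TPM. The annotation release and the strand setting are not given in the sources used here. TPM carries no read number, so no counting interval was computed. The read numbers that the study tabulates per library were not used here. RSEM divides reads that match several genes, and because TPM sums to a fixed total, more of one transcript lowers the others. Each sample had 29463 to 31016 genes above 0. No 2 samples were identical, and pairwise correlations reached 0.972 at most. The study's own test, DESeq2 on counts, was not analysed here.

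A pseudocount of 0.1 was added, log2 was taken, and genes that reached 0.5 TPM in 4 or more samples were fitted in R (version 4.3.3) with limma (version 3.58.1; lmFit, contrasts.fit and eBayes with a trend), all 12 samples in 1 fit without covariates. P-values are two-sided and adjusted by Benjamini-Hochberg over all 16815 genes. The pseudocount makes fold changes of genes at low TPM too small. Ratios within a sample were compared by exact permutation tests in Python (version 3.11.15; numpy 2.4.6, scipy 1.17.1, pandas 2.3.3), and figures drawn with matplotlib (version 3.10.9). The procedure was tested on simulated data.

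Named genes are the 8 regulators, up to 2 called genes with the largest rise and fall per list, the 3 nearest profiles per regulator, and transcripts that overlap a regulator. Genes not called or below the filter are also named where they are 3 or fewer in a list, and these were chosen after their values were seen. Some genes that this rule names are not reported here. The regulators and the lists were chosen with earlier results of these data known. Promoter and microRNA sequences came from RefSeq (GRCh38.p14), in which all 8 genes matched. Alternatives were pseudocounts of 1 and 0.01, every gene above 0, genes averaging 1 TPM or more, median-of-ratios scaling, rescaling to nuclear protein-coding TPM, a fit of the compared groups only, a block for the replicate number, a fit with no variance trend, and leaving out each sample in turn.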

Additional observations from a re-analysis of the deposited data

Results flagged for a closer look

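INSIG1 in the MET group had 1 sample far from the others. Its TPM was 82.25 in MET sample 2, while the other 3 MET samples lay between 79.02 and 79.31, so that the gap to the nearest sample made up 0.910 of the group's range, above Dixon's 95% critical value for 4 samples. It was the only such sample among 24 combinations of gene and group, and chance gives about 1 in 20. The value lies inside the range of the VEH samples.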

How the results depend on the processing

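SREBF1, SREBF2, INSIG1 and TMEM97 kept their direction and their call for CJ28 against VEH and against MET under every alternative run, as did SCAP against VEH. The SREBF1 log2 fold change against VEH ran from -4.37 to -3.41, the latter with a pseudocount of 1. Between 5 and 7 of the 8 regulators were called for CJ28 against VEH, 5 or 6 for CJ28 against MET and 0 for MET against VEH. Same-numbered samples did not deviate together, with correlations between 0.004 and 0.039 for CJ28 and VEH and between -0.063 and 0.021 for MET and VEH, so the numbers were not taken as pairs. With the replicate block, calls over all genes for CJ28 against VEH went from 9577 to 9546, MBTPS1 became a call (-0.14, limma adjusted p = 0.0316), and 1 gene of the COPII list was lower in place of 2. Leaving out 1 sample gave MBTPS1 -0.19 to -0.090 against VEH, with a call without VEH replicate 3 (-0.17) or CJ28 replicate 4 (-0.19), and INSIG2 -0.39 to -0.29 against MET, with the call lost without CJ28 replicate 3, MET replicate 1 or MET replicate 3.

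With median-of-ratios scaling and with nuclear protein-coding TPM, in that order, INSIG2 lost its calls (-0.21 and -0.16 against VEH, -0.215 and -0.15 against MET). With the latter, SCAP against MET was lost (-0.065), and MBTPS1 against MET turned to 0.15 (limma adjusted p = 0.0439). For CJ28 against VEH, the counts of higher genes under these scalings were 2 and 2 for fatty acid targets (0 otherwise), 4 and 4 for ER retention (2), 7 and 8 for the COPII list (4), 1 and 1 for nuclear partners (0) and 2 and 2 for the LXR axis (1). Lower genes were 7 and 5 for ER retention (11) and 0 and 0 for the COPII list (2), and with nuclear protein-coding TPM 5 for nuclear partners (9) and 0 for other substrates of site-1 protease (1), where the ER retention median turned to 0.022. The COPII list had 1 lower gene with every gene above 0 and with no variance trend, and 0 to 2 with 1 sample left out (0 without VEH replicate 3, VEH replicate 4 or CJ28 replicate 3). Among genes averaging 1 TPM or more, which removes ABCA1, ABCG1 and MYLIP, the LXR axis had 2 lower genes and a median of 0.074, and with 1 sample left out 3 to 5 lower genes (3 without VEH replicate 1 or 2).

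The ratio differences with 1 sample left out ran, against VEH and against MET in that order, from -3.25 to -3.04 and -3.36 to -3.11 for SREBF1 to SREBF2, from -1.95 to -1.80 and -1.91 to -1.79 for INSIG1 to INSIG2, from 1.81 to 1.87 and 1.90 to 1.96 for SCAP to INSIG1, and from -0.17 to -0.038 and -0.12 to -0.044 for MBTPS1 to MBTPS2. The adjusted p fell under 0.05 for all 4 ratios without VEH replicate 2 (against VEH) or MET replicate 4 (against MET). There MBTPS1 to MBTPS2 (-0.17 and -0.12) also reached the smallest possible p. The other ratios had p = 0.0286 with or without these samples (exact permutation test). Their adjusted p fell only because MBTPS1 to MBTPS2 tied with them. With the replicate block, SREBF1 to SREBF2, INSIG1 to INSIG2 and SCAP to INSIG1 had p = 0.125 in both comparisons (permutation test). This is the smallest p that 4 pairs allow, so the blocked test (adjusted p of 0.25) could not have passed 0.05. With a pseudocount of 1, the SREBF1 to SREBF2 difference was -2.44 against VEH and -2.50 against MET. The TPM table carries no read counts, which limits what can be said of genes at low TPM. Other causes of these changes were not tested.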

Other observations

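Within the CJ28 group, sample 3 held the lowest TPM of 5 of the 8 regulators (SREBF1, SREBF2, INSIG2, MBTPS1 and MBTPS2) and the highest of TMEM97. CJ28 sample 4 held the highest TPM of 4 of the 8 (SREBF2, SCAP, MBTPS1 and MBTPS2). The median-of-ratios factor was 0.924 for CJ28 sample 3, the lowest of the 12 libraries, and 0.958 for CJ28 sample 4, the highest of its group. In VEH, sample 3 held the lowest TPM of 4 of the 8 regulators, with a factor of 1.02 that was the lowest of its group, and sample 2 the highest of 5. Their part in these orders was not tested.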
